A study of Mus musculus with 4 samples.

Results

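The genes described here are 10 structural genes of the mouse sperm tail, Odf1, Odf2, Akap3, Akap4, Ropn1, Ropn1l, Smcp, Cabyr, Fsip1 and Fsip2, taken by name from a deposited testis expression table of 44509 gene symbols. All 10 were in the table, and all 10 passed the filter on low values that left 19837 genes for testing. The table holds 4 RNA-seq libraries of mouse testis. In 2 of them, called Cus-1 1 and Cus-1 2 here, the mice had busulfan-induced oligozoospermia and were then treated with Cus-1, and in the other 2, called busulfan 1 and busulfan 2, they had busulfan-induced oligozoospermia alone. Busulfan alkylates DNA and depletes germ cells that divide, and Cus-1 is described in the series title as a resin glycoside, a compound class in which sugars are linked to fatty acids, from cuscutae. Every animal had therefore received busulfan, and no testis without busulfan is analysed here. The labels give no strain, age, dose, time, vehicle, batch or pairing, and they do not say whether the libraries of a group came from separate animals, so p-values reflect the spread among these libraries alone, part of which may be technical. The sample titles begin with CUS2 for the libraries with Cus-1 and BPA for those without, prefixes the labels do not explain, and the groups rest on the source label alone. The series title puts the question in terms of spermatogenesis after Cus-1.

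The flagellum of a sperm is built around an axoneme of microtubules that carries accessory structures found in no other cell. Outer dense fibres run along the axoneme through the midpiece and the principal piece, the fibrous sheath surrounds them in the principal piece and holds signalling and glycolytic enzymes, and mitochondria wrap the midpiece. The messages for these structures are made in meiotic and haploid germ cells, and many are stored in round spermatids and translated later in elongating ones.

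For all 10 genes the lower Cus-1 library had more FPKM than the higher busulfan library, and none passed the adjusted threshold. FPKM counts fragments relative to the length of the gene, in kilobases, and to every 1000000 mapped fragments. Of all tested genes, 36.6% were likewise higher in both Cus-1 libraries, and 31.7% were lower in both, as 0 of the 10 were. The test was limma, an empirical Bayes linear model that pools the spread over genes, on log2(FPKM + 1), with a Benjamini-Hochberg adjusted p under 0.05 as the threshold. In that fit 0 of the 10 genes passed, against 0.0% of all tested genes, with adjusted p between 0.152 for Ropn1l and 0.208 for Akap4. An exact permutation test of 2 libraries against 2 cannot go below a two-sided p of 0.333 and was not used. At an unadjusted p under 0.05 there were 8 of the 10 genes, all but Akap4 and Fsip1, against 18.0% of all tested genes in the same direction. In the other direction there were 0 of the 10 and 9.96% of all tested genes. The log2 fold changes, Cus-1 minus busulfan, ran from 0.77 for Fsip2 to 1.35 for Smcp with a median of 1.21, while the median over all tested genes was 0.04. On the linear scale the ratio of mean FPKM lay between 1.83 for Fsip2 and 2.86 for Smcp.

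The 4 libraries stood in the same order for every one of the 10 genes. Cus-1 1 was highest, Cus-1 2 came next, busulfan 2 followed and busulfan 1 was lowest, an order that 23.5% of all tested genes shared. The summed FPKM of the 10 genes was 3139.5 in Cus-1 1 and 1801 in Cus-1 2, against 953 in busulfan 1 and 1302 in busulfan 2. As a share of all FPKM this was 0.432% and 0.244% in the Cus-1 libraries and 0.131% and 0.175% in the busulfan libraries. In a whole tissue, fewer cells of a type and less RNA per cell cannot be told apart, so these values do not say which differed. Without Cus-1 1 the median log2 fold change of the 10 genes was 0.64, and without Cus-1 2 it was 1.87. The count at an unadjusted p under 0.05 was 9 of 10 with Cus-1 2 left out, against 19.3% of all tested genes in that fit, and 1 of 10 with Cus-1 1 left out, against 7.25%. It was 5 of 10 with busulfan 2 left out, against 16.1%, and 0 of 10 with busulfan 1 left out, against 5.84%, so the count over all genes differed between these fits as well.

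**Figure D1:**
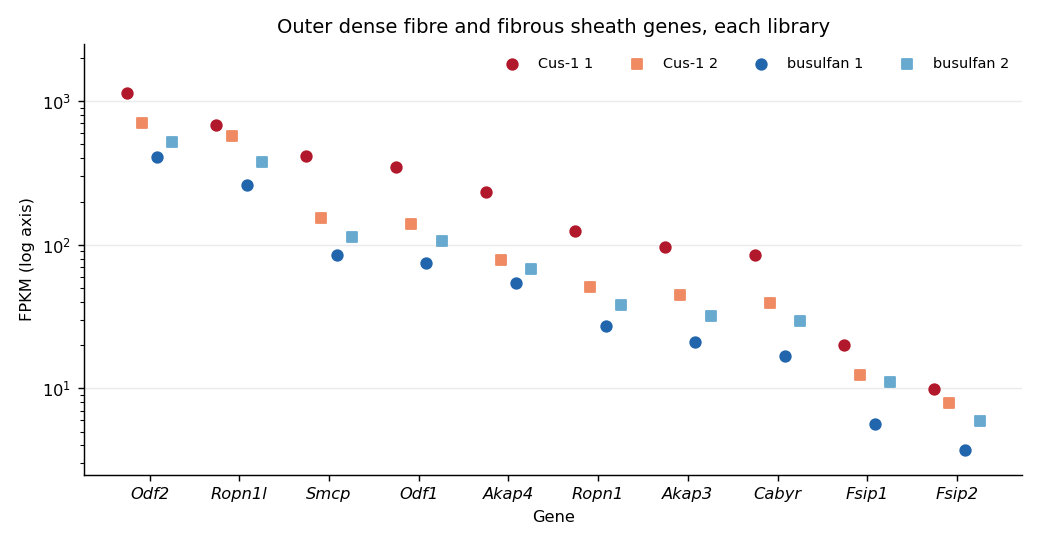
FPKM on a log axis of the 10 sperm tail genes in each library (red circle and orange square, Cus-1 1 and 2; dark blue circle and light blue square, busulfan 1 and 2; 1 point per library, no error bars). Genes run by their mean level, from Odf2 to Fsip2, and in each of them Cus-1 1 is highest and busulfan 1 lowest.

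Because the genes were higher in the same libraries, the sequence around their starts is shown for 5 of them. Shown are the 2 most abundant (Odf2 and Ropn1l) and 3 with a wide spread between the Cus-1 libraries (Smcp, Akap3 and Akap4). Each window runs from 250 bases before to 50 bases after a RefSeq transcription start on GRCm38.p6, 5′ to 3′ on the strand of the gene, and capitals mark the motif matches described after the sequences. They lie at chr2:29889470-29889769 on the plus strand for Odf2, at chr15:31453640-31453939 on the minus strand for Ropn1l, at chr3:92589024-92589323 on the minus strand for Smcp, at chr6:126852848-126853147 on the plus strand for Akap3 and at chrX:7067265-7067564 on the plus strand for Akap4. For Odf2 and Akap4 the table gives more than 1 start, 4 and 2 in all, and the first listed is shown.
Odf2: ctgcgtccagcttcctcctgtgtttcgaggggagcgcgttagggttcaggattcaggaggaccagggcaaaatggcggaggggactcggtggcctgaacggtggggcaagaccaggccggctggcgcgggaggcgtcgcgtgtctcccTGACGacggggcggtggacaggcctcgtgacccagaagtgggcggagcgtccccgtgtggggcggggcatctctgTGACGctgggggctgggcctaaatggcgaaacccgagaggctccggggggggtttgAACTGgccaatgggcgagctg
Ropn1l: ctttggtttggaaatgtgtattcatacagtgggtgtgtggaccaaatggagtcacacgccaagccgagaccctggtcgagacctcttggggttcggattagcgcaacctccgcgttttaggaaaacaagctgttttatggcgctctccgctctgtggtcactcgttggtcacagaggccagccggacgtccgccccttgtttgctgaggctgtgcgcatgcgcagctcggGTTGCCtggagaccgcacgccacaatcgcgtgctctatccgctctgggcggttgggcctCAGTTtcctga
Smcp: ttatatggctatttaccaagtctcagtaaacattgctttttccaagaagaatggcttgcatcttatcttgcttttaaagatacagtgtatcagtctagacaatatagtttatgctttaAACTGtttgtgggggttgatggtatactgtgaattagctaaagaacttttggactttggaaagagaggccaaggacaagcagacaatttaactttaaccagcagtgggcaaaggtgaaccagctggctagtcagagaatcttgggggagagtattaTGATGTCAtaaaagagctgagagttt
Akap3: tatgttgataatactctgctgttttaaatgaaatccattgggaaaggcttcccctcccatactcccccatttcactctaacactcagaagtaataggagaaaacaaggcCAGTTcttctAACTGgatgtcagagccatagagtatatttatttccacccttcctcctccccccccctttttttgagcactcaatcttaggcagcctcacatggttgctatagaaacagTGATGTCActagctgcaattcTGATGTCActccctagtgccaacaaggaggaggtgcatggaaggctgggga
Akap4: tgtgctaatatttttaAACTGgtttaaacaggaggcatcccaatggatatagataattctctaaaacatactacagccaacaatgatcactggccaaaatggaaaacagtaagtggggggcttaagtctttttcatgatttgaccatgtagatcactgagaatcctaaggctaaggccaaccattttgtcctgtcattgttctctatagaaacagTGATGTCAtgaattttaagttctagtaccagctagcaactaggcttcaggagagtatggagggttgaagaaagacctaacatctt
The motif search among the 10 genes covered 11 windows of the RefSeq table, for 7 of the genes, Odf2, Akap3, Akap4, Ropn1, Ropn1l, Smcp and Fsip2. The remaining genes were not part of this search, so the counts below do not cover them. Both strands were searched for the whole cAMP response element TGACGTCA, its shorter core TGACG, the X-box repeat GTTGCC, the TATA box TATAAA and the MYB core AACTG, of which TGACG lies inside TGACGTCA. TGACGTCA and TATAAA were in 0 of the 11 windows and in 1.79% and 13.6% of all 32851 windows. TGACG was in windows of Odf2 and Fsip2 (20.8% of all windows) and GTTGCC in that of Ropn1l (12.5%). AACTG was in 8 of the 11 windows, some of them of the same gene, against 44.8% of all windows. The genes were Odf2, Akap3, Akap4, Ropn1l and Smcp. In the window of Ropn1l it was on the other strand, as CAGTT, and in that of Akap3 on each strand. The letters TGATGTCA, a variant of the cAMP response element that was searched for only after the windows had been seen, stood in 1 window each of Akap3, Akap4 and Smcp, at 2 places in that of Akap3, and in 3.62% of all windows. The window of Ropn1, which is not shown, held none of these motifs, although its spread between the Cus-1 libraries (1.28) was wider than that of Akap3 (1.10). Of the marked matches, TGATGTCA of Smcp and AACTG of Odf2 and Ropn1l began after the start, at positions 25, 30 and 40. The other marked matches began before it, 1 of those in Akap3 by 1 base. These are matches of letters only, and nothing measured here shows a factor at them.

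Odf1 and Odf2 encode the core proteins of the outer dense fibres. Odf1, on chromosome 15 (38219203 to 38226735, plus strand, mm10), makes a cysteine-rich fibre protein without which mouse sperm heads detach from their tails. It was at 345 and 139.4 FPKM in the Cus-1 libraries, against 74.5 and 106 FPKM in the busulfan libraries. The groups did not overlap, and Cus-1 2 lay closer to busulfan 2 than to Cus-1 1. The log2 fold change was 1.29 (SE 0.46, limma adjusted p = 0.167). Odf2, on chromosome 2 (29889221 to 29931746, plus strand), makes a coiled-coil fibre protein and also cenexin, a protein of the centriole in other cells, and its level sums both. It was the most abundant of the 10 in every library, at 1135 and 701 FPKM with Cus-1 and 406 and 523 FPKM with busulfan. The log2 fold change of Odf2 was 0.95 (SE 0.30, adjusted p = 0.154), with a gap of 0.42 on the log2 scale between the lower Cus-1 and the higher busulfan library.

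Akap3 and Akap4 encode the 2 anchoring proteins that form most of the fibrous sheath and tether protein kinase A there. Akap4, on chromosome X (7067519 to 7078609, plus strand), makes the most abundant sheath protein, without which the sheath of mouse sperm does not form fully. It was at 232 and 78.7 FPKM in the Cus-1 libraries, against 54.4 and 67.2 FPKM in the busulfan libraries. Only 0.22 on the log2 scale separated the groups, while the Cus-1 libraries themselves lay 1.55 apart, the widest such spread among the 10 genes. The log2 fold change of Akap4 was 1.15 (SE 0.52, adjusted p = 0.208), and 0.37 without Cus-1 1 against 1.92 without Cus-1 2. Akap3, on chromosome 6 (126853098 to 126874308, plus strand), was at 97.2 and 45.0 FPKM with Cus-1 and at 21.1 and 31.8 FPKM with busulfan. Its log2 fold change was 1.32 (SE 0.41, adjusted p = 0.154), and its Cus-1 libraries were 1.10 apart.

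Ropn1, Ropn1l and Cabyr encode sheath proteins that bind such anchoring proteins through a domain like that of the kinase's regulatory subunit. Ropn1l, on chromosome 15 (31441211 to 31453737, minus strand), was at 677 and 573 FPKM in the Cus-1 libraries, against 259.6 and 375 FPKM in the busulfan libraries. It had the smallest spread between the Cus-1 libraries (0.24 on the log2 scale) and the widest gap between the groups (0.61). It also had the smallest p of the 10, with a log2 fold change of 0.99 (SE 0.24, unadjusted p = 0.00931, adjusted p = 0.152). Ropn1, its paralog on chromosome 16 (34649921 to 34678618, plus strand), was at 124 and 50.4 FPKM with Cus-1 and 27.3 and 38.3 FPKM with busulfan, with a spread of 1.28 between the Cus-1 libraries and a log2 fold change of 1.26 (SE 0.45, adjusted p = 0.167). Cabyr, a calcium-binding sheath protein gene on chromosome 18 (12740322 to 12755260, plus strand), was at 84.3 and 39.4 FPKM with Cus-1 and 16.7 and 29.5 FPKM with busulfan. Cabyr had a log2 fold change of 1.34 (SE 0.45, adjusted p = 0.160), and between Cus-1 1 and busulfan 1 the largest ratio of the 10, 5.06.

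Fsip1 and Fsip2 encode proteins that interact with the fibrous sheath, and FSIP2 variants in men cause short or misshapen flagella. They were the 2 least abundant of the 10. Fsip1, on chromosome 2 (118130424 to 118256966, minus strand), was at 20.1 and 12.3 FPKM in the Cus-1 libraries, against 5.64 and 11.03 FPKM in the busulfan libraries. Its groups were nearly touching, 0.15 apart on the log2 scale, and its busulfan libraries differed more (0.86) than its Cus-1 libraries (0.66). The log2 fold change of Fsip1 was 0.91 (SE 0.38, adjusted p = 0.193). Fsip2, also on chromosome 2 (82943634 to 83008937, plus strand), was at 9.82 and 7.92 FPKM with Cus-1 and 3.73 and 5.97 FPKM with busulfan (log2 fold change 0.77, SE 0.27, adjusted p = 0.166). At these levels the added pseudocount lowers a fold change. With a pseudocount of 0.1 the log2 fold change was 0.99 for Fsip1 and 0.89 for Fsip2.

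Smcp belongs to neither structure. It encodes a cysteine-rich protein of the capsule around midpiece mitochondria, and its message is a known case of storage in round spermatids and delayed translation in the mouse. It lies on chromosome 3 (92583867 to 92588997, minus strand) and was at 415 and 153 FPKM in the Cus-1 libraries, against 84.8 and 114 FPKM in the busulfan libraries. Its log2 fold change of 1.35 (SE 0.49, adjusted p = 0.169) was the largest of the 10, and the Cus-1 libraries were 1.43 apart. Smcp was at 0.64 without Cus-1 1, below Ropn1l, Cabyr and Akap3 in that setting (0.88, 0.80 and 0.77) and level with Odf1 (0.64). The order of the fold changes among the 10 thus differed between settings, and no difference between the genes' fold changes was tested.

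The genes differed in how far the 2 Cus-1 libraries lay apart. For Akap4, Smcp, Odf1, Ropn1, Akap3 and Cabyr the difference between Cus-1 1 and Cus-1 2 was 1.08 to 1.55 on the log2 scale, larger than the difference between busulfan libraries in each. For Odf2 and Fsip1 it was 0.69 and 0.66, and for Fsip2 and Ropn1l 0.28 and 0.24. The median over the 10 was 1.09 between the Cus-1 libraries and 0.52 between the busulfan libraries, while over all tested genes the median size of the difference, its sign left aside, was 0.25 and 0.26. The gap between the groups, from the lower Cus-1 to the higher busulfan library, was 0.15 to 0.61 with a median of 0.40. It exceeded the spread within both groups for Ropn1l alone.

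**Figure D2:**
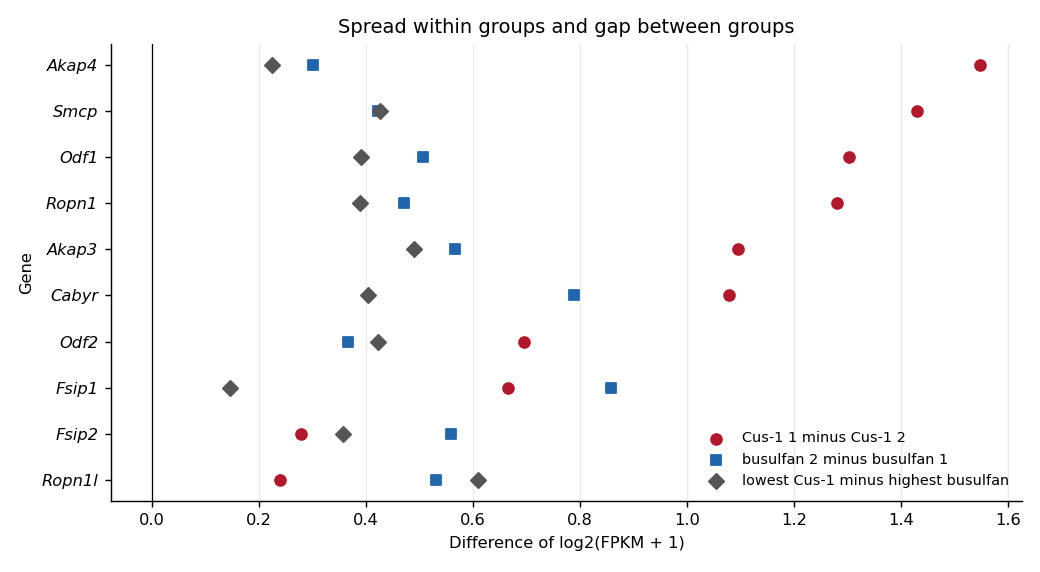
Differences of log2(FPKM + 1) for each of the 10 genes, within the Cus-1 group (red circles, Cus-1 1 minus Cus-1 2), within the busulfan group (blue squares, busulfan 2 minus busulfan 1) and between the groups (grey diamonds, lower Cus-1 minus higher busulfan library). The red circles run from 0.24 for Ropn1l at the bottom to 1.55 for Akap4 at the top, and all grey diamonds are above 0.

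Within a library, levels can be set against each other without regard to how libraries are scaled, although the gene lengths behind each FPKM are the authors' and not stated in the sources used here. The order of the 10 genes by FPKM was the same in all 4 libraries and ran Odf2, Ropn1l, Smcp, Odf1, Akap4, Ropn1, Akap3, Cabyr, Fsip1 and Fsip2. For all 9 pairs of neighbours in that order the ranges over the 4 libraries overlapped. Within the groups the ranges overlapped for 5 of the 9 pairs with Cus-1 and 4 of the 9 with busulfan. Odf2 and Ropn1l, Ropn1l and Smcp, and Cabyr and Fsip1 were apart in both groups, while Smcp and Odf1, Ropn1 and Akap3, and Akap3 and Cabyr overlapped in both. Odf2 and Ropn1l together made up 57.7% and 70.8% of the summed FPKM of the 10 genes in the Cus-1 libraries and 69.8% and 69.0% in the busulfan libraries, so Cus-1 1 stood apart.

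Some pairs kept their ratio and others did not. Smcp to Odf1 was steady, at 1.20 and 1.10 in the Cus-1 libraries and 1.14 and 1.07 in the busulfan libraries. Akap4 to Akap3 was at 2.39 and 1.75 with Cus-1 and at 2.57 and 2.12 with busulfan, and Fsip1 to Fsip2 at 2.05 and 1.55 with Cus-1 and 1.51 and 1.85 with busulfan. In both of these pairs the groups overlapped. Ropn1l to Ropn1 was at 5.46 and 11.4 in the Cus-1 libraries, against 9.49 and 9.81 in the busulfan libraries. Odf2 to Odf1 was at 3.29 and 5.03 with Cus-1 and at 5.44 and 4.92 with busulfan. In these 2 pairs Cus-1 1 was lowest and the other 3 libraries lay close together. Of 3 ratios added after the values were seen, Cabyr to Ropn1 was at 0.680 and 0.781 with Cus-1 and 0.610 and 0.772 with busulfan. Akap4 to Ropn1l was at 0.343 and 0.137 with Cus-1 and 0.210 and 0.179 with busulfan, and Smcp to Ropn1l was at 0.613 and 0.268 with Cus-1 and 0.327 and 0.304 with busulfan. In both of these Cus-1 1 was highest and Cus-1 2 lowest, so no ratio separated the groups beyond the spread of the Cus-1 libraries.

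**Figure D3:**
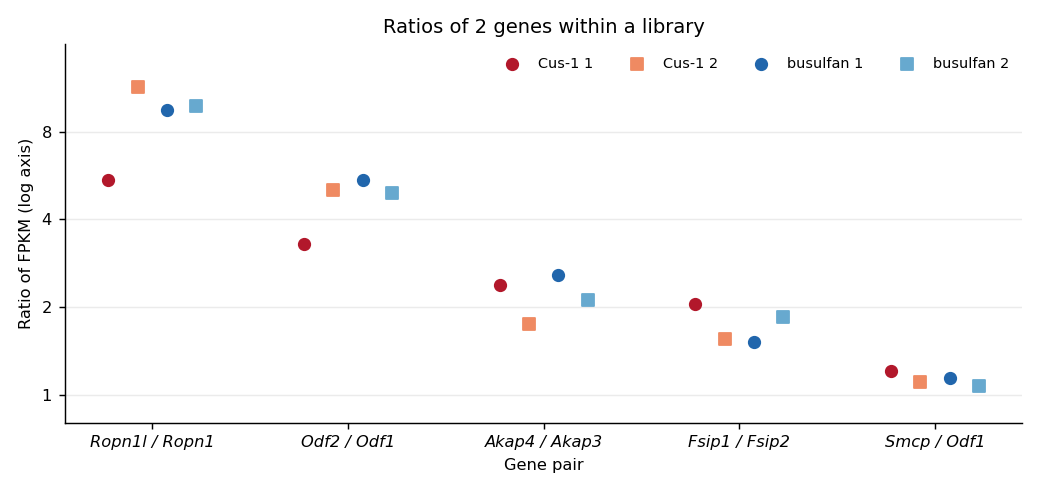
Ratios of FPKM of 2 genes within each library on a log axis (red circle and orange square, Cus-1 1 and 2; dark blue circle and light blue square, busulfan 1 and 2). Ropn1l / Ropn1 and Odf2 / Odf1 are lowest in Cus-1 1 (5.46 and 3.29), while Smcp / Odf1 lies between 1.07 and 1.20 in all libraries.

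Other genes linked to the dense fibres, the fibrous sheath or the midpiece mitochondrial sheath were described from 3 lists. Of their 41 tested members, 0 passed limma's adjusted threshold. At an unadjusted p under 0.05, 21 were higher and 0 lower, against 18.0% and 9.96% of all tested genes. By library, 35 were higher in both Cus-1 libraries, 2 were lower in both (Prkar1a, a regulatory subunit of protein kinase A, and Phb1, a mitochondrial prohibitin) and 4 overlapped. Of all tested genes 36.6% were higher in both and 31.7% lower in both. Their median log2 fold change was 0.91. At an unadjusted p under 0.05, 33 were higher with Cus-1 2 left out and 11 with Cus-1 1 left out, against 19.3% and 7.25% of all tested genes in those fits. With busulfan 2 left out 16 were higher, against 16.1%, and with busulfan 1 left out 2, against 5.84%. Genes named from the lists were the 2 most abundant and the 2 of smallest p in each.

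Of 15 tested dense fibre partners, 14 were higher in both Cus-1 libraries, against 36.6% of all tested genes. The list median was 0.91. Oaz3, a germ cell antizyme, was at 316 and 111 FPKM with Cus-1 and 70.7 and 89.9 FPKM with busulfan. Spata6, which the connecting piece at the neck needs, was at 219.5 and 123 FPKM with Cus-1 and 85.8 and 119 FPKM with busulfan, so that Cus-1 2 lay just above busulfan 2. Septin12, of the annulus between midpiece and principal piece, had a log2 fold change of 0.97 (SE 0.19, limma adjusted p = 0.152) and Odf4 one of 0.91 (SE 0.22, adjusted p = 0.152). Spata6 and Oaz3 had log2 fold changes of 0.69 and 1.23 and wider errors (SE 0.33 and 0.51, adjusted p = 0.222 and 0.188).

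Of 14 tested sheath partners, 10 were higher in both Cus-1 libraries, 1 was lower in both and 3 overlapped, set beside the 36.6% and 31.7% of all tested genes that were higher or lower in both. The list median was 0.90, and 0.51 without Cus-1 1. Ldhc, the germ cell lactate dehydrogenase, was at 2049 and 1823 FPKM with Cus-1 and 905 and 1275 FPKM with busulfan (log2 fold change 0.85, SE 0.26, limma adjusted p = 0.153). Crisp2, a cysteine-rich secretory protein of the acrosome and tail, was at 1102 and 883 FPKM with Cus-1 and 413 and 520.5 FPKM with busulfan (log2 fold change 1.09, SE 0.22, limma adjusted p = 0.152). Spa17, a sheath protein of the same binding family as Ropn1l, was at 544 and 388 FPKM with Cus-1 and 179 and 271 FPKM with busulfan (1.05, SE 0.29, adjusted p = 0.152). The 12 genes of the midpiece mitochondrial sheath had a median of 1.04, and of 0.62 without Cus-1 1, with 11 higher in both Cus-1 libraries. Gpx4, whose peroxidase becomes a structural protein of the capsule that Smcp also belongs to, was at 893 and 751 FPKM with Cus-1 and 548 and 638 FPKM with busulfan (0.47, SE 0.20, adjusted p = 0.196), a smaller ratio of means (1.39) than that of Smcp (2.86). Spata19, needed for mitochondrial sheath adhesion, was at 174 and 78.8 FPKM with Cus-1 and 39.4 and 52.3 FPKM with busulfan (1.35, SE 0.40, adjusted p = 0.152). Gk2, a glycerol kinase made in germ cells, was at a log2 fold change of 0.91 (SE 0.24, adjusted p = 0.152) and Vdac3, a mitochondrial pore, one of 0.15 (SE 0.16, adjusted p = 0.533).

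Most markers of germ cell stages were, like the 10 genes and 36.6% of all tested genes, higher in both Cus-1 libraries, and no marker list had a gene past the adjusted threshold. Germ cells were present by these markers in all 4 libraries. The summed FPKM of 12 round spermatid markers was 701 to 954 in the Cus-1 libraries and 339 to 501 in the busulfan libraries. All 12 were higher in both Cus-1 libraries, with a median log2 fold change of 1.07. This median was 0.72 with Cus-1 1 left out, 1.51 with Cus-1 2 left out and 0.78 with busulfan 1 left out. The summed FPKM of 10 elongating spermatid markers was 4008 to 11076 with Cus-1 and 2992 to 3029.8 with busulfan (9 of 10 higher in both, median 1.19). With Cus-1 1 left out the median of this list was 0.46, and with Cus-1 2 left out it was 1.89. That of 12 spermatocyte markers was 1417 to 1515 with Cus-1 and 592 to 1014 with busulfan (11 of 12 higher in both, median 0.90, and 0.43 without busulfan 1). Of the leading markers, Mael (spermatocytes) had a log2 fold change of 0.90 (SE 0.23), Tbpl1 (round spermatids) 0.82 (SE 0.21) and Tnp1 (elongating spermatids) 1.17 (SE 0.49), all with a limma adjusted p above the threshold (0.152, 0.152 and 0.192). These lists share libraries with the 10 genes, and the part of cell mixture in the fold changes was not tested.

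The marker lists of these stages were also compared between libraries of 1 group. The median difference between Cus-1 1 and Cus-1 2 was 0.14 for spermatocyte, 0.82 for round spermatid and 1.41 for elongating spermatid markers, on the log2 scale. Single markers ran from -0.27 to 0.26 for spermatocytes, from 0.16 to 1.18 for round spermatids and from -0.38 to 1.54 for elongating spermatids. The -0.38 was that of Car4 alone, and the other elongating spermatid markers ran from 0.98 to 1.54. Without Car4 the elongating list thus lay above the spermatocyte list, while the round spermatid list overlapped both. The 10 genes, at 0.24 for Ropn1l to 1.55 for Akap4, lay within or above the round spermatid range and were not assigned to stages. Between the busulfan libraries the order of the 3 lists was the reverse, with medians of 0.70, 0.59 and 0.09, and the 10 genes ran from 0.30 for Akap4 to 0.86 for Fsip1. Tnp1 was at 3062 and 1155 FPKM with Cus-1 and at 886 and 793 FPKM with busulfan, so its busulfan libraries stood in the opposite order to those of the 10 genes. These differences describe 4 libraries and were noticed after the values were seen.

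Sertoli, macrophage, endothelial and Leydig markers were mostly lower in both Cus-1 libraries, and myoid markers mostly overlapped. The summed FPKM of 12 Sertoli markers was 2688 to 3268 in the Cus-1 libraries and 4076 to 5640.0 in the busulfan libraries, with all 12 lower in both Cus-1 libraries and a median of -0.74. Medians were -0.49 for 8 Leydig, -0.28 for 6 peritubular myoid, -0.63 for 8 macrophage and -0.52 for 6 endothelial markers, with 5, 1, 6 and 5 of them lower in both, against 31.7% of all tested genes. Without Cus-1 1 the Leydig median was -0.23, the myoid -0.08 and the macrophage -0.39, and without busulfan 1 the myoid median was -0.05. The summed FPKM of the Leydig markers was 13143 to 19216 with Cus-1 and 26373 to 26867 with busulfan. Most of these sums was Insl3, at 10265 and 14601 FPKM with Cus-1 and 22947 and 20478 FPKM with busulfan. The groups overlapped for 3 of the 8 Leydig markers. The summed FPKM of the myoid markers was 258 to 375 with Cus-1 and 314 to 478 with busulfan. Macrophage markers summed to 343 to 505 FPKM with Cus-1 and 616 to 772 FPKM with busulfan, and endothelial markers to 34.8 to 41.0 FPKM with Cus-1 and 50.2 to 67.6 FPKM with busulfan. Clu, of Sertoli cells, was at -0.67 (SE 0.31), Insl3, of Leydig cells, at -0.82 (SE 0.45), Myl9, of myoid cells, at -0.34 (SE 0.32), Lyz2, of macrophages, at -0.64 (SE 0.27) and Cldn5, of endothelium, at -0.66 (SE 0.25), with limma adjusted p between 0.174 for Cldn5 and 0.478 for Myl9. Of 10 epididymis markers 6 were matched, of which Crisp1 and Adam7 were at 0.27 FPKM or less in every library, and Cst8, which had the highest level, overlapped between the groups. Spink8 was at 10.4 and 11.03 FPKM with Cus-1 and 37.4 and 12.7 FPKM with busulfan, lower in both Cus-1 libraries and highest in busulfan 1. Rnase10 and Defb21 were at 3.03 FPKM or less. No marker of the germ cell and somatic lists was listed at 0 in all libraries.

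**Figure D4:**
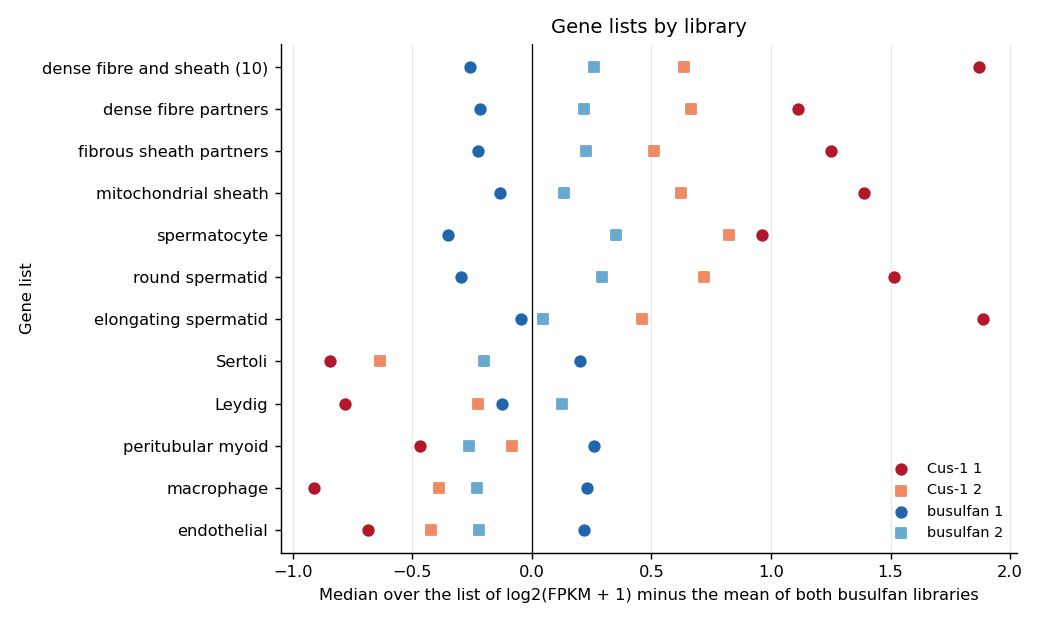
Median over each gene list of log2(FPKM + 1) minus the mean of both busulfan libraries, by library (red circle and orange square, Cus-1 1 and 2; dark blue circle and light blue square, busulfan 1 and 2). For the 10 dense fibre and sheath genes Cus-1 1 is at 1.87 and Cus-1 2 at 0.64, while for spermatocyte markers they are at 0.96 and 0.83 and for Sertoli markers at -0.84 and -0.63.

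Set against round spermatid markers, the 10 genes showed no common direction. With each library centred on the median of those 12 markers the median log2 fold change of the 10 was 0.01, with 5 positive and 5 negative, 0 higher in both Cus-1 libraries, against 0.474% of all tested genes, and limma adjusted p between 0.692 and 0.967. Fsip2 was then at -0.42, Fsip1 at -0.29, Odf2 at -0.24, Ropn1l at -0.20 and Akap4 at -0.05, while Smcp was at 0.16 and Cabyr at 0.14. Set against Sertoli markers, all 10 passed the adjusted threshold (adjusted p 0.0297 to 0.0472, median 2.02), as did 47.1% of all tested genes in the same direction. The median of all tested genes was -1.15 with the first centring and 0.85 with the second. The round spermatid markers themselves had a median of -0.12 after the first, and the Sertoli markers 0.07 after the second. The direction of the 10 genes thus held relative to all genes and to Sertoli markers, and not relative to round spermatid markers.

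**Figure D5:**
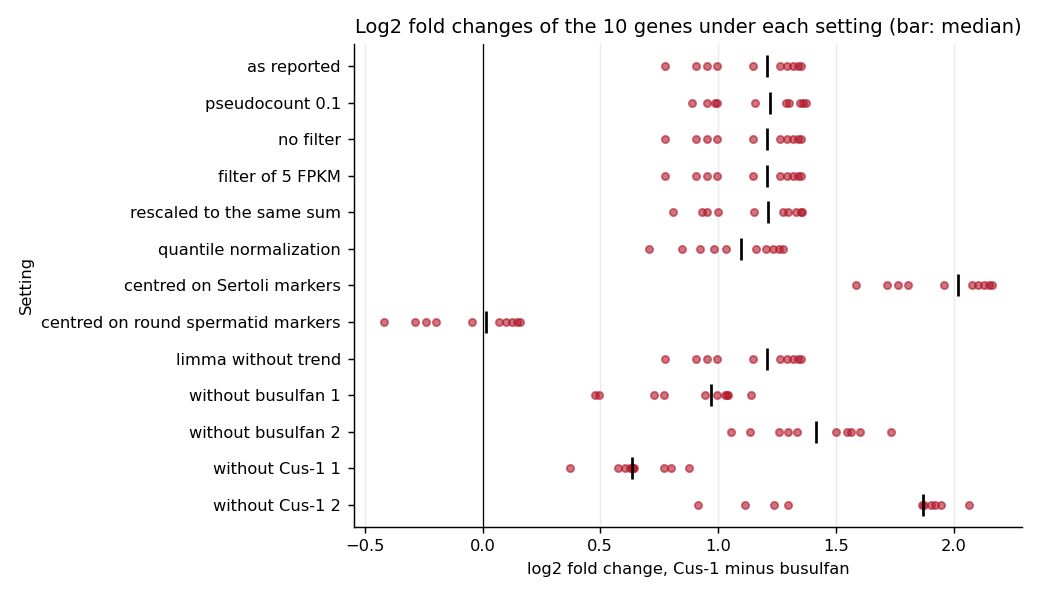
Log2 fold changes of the 10 genes (red points) and their median (black bar), Cus-1 minus busulfan, under the reported setting and each alternative, including leaving out 1 library. The points lie above 0 in every setting but the one centred on round spermatid markers, where 5 are below 0.

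Outside the 10, the genes whose values over the 4 libraries were most like the mean of the 10 were BC049715, 4933405O20Rik, Capza3, Lemd1 and Fbxl13. Likeness was the root mean square distance over the 4 libraries between log2(FPKM + 1) centred on each gene's mean and the mean of the 10 so centred. It was 0.0247 for BC049715 and 0.0320 for Fbxl13, and 0.104 for Akap3 to 0.301 for Fsip2 among the 10 themselves. The genes outside the 10 were picked for the smallest distances among all tested genes, so their smaller values follow from that choice. Capza3, the actin-capping subunit of germ cells, was at 46.4 and 24.6 FPKM with Cus-1 and at 12.4 and 18.6 FPKM with busulfan. The library order itself was shared by 4660 of the tested genes.

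The summed FPKM was 727125 and 739159.7 in the Cus-1 libraries and 726041 and 742689 in the busulfan libraries, and fragment numbers are not given. The most common low value of FPKM times gene length, taken over 58 to 75 short genes a library, served as a rough estimate of what 1 fragment is worth. By that estimate Odf1, which has 1 annotated transcript, would rest on about 754 fragments in busulfan 1, its lowest library, and Fsip1 on about 150.4 there, counts that cover counting error only. Of the 10 genes, 8 share no stretch of 50 bases with transcripts of another gene in GENCODE M21, while 0.734% and 2.94% of such stretches in Odf2 and Fsip1 do. Odf2 shares 97 exon bases with the small RNA gene Gm23865 on the opposite strand and Fsip1 133 with Gm29232 on its own. The sources used here do not say how the authors counted such overlaps.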

How the data were processed

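RNA-seq of mouse testis was deposited by the authors as 1 table of FPKM for 4 libraries, with mm10 as the genome build per the submitters' processing notes. Aligner, counting tool, strand setting and gene lengths were not given in the sources used here. Libraries were grouped by their source label, and replicate numbers follow submission order and pair nothing. Blank rows (46) were dropped, and 910 rows without a gene name (0.641% to 0.688% of FPKM) were kept out of tests. For the 115 symbols that stood on several rows, the row of highest mean FPKM was kept. Genes that reached 1 FPKM in 2 or more libraries were tested on log2(FPKM + 1) with limma 3.58.1 (R 4.3.3, empirical Bayes with a mean-variance trend, no covariates), with Benjamini-Hochberg adjustment over all 19837. The pseudocount of 1 understates the change of low genes. The script was tested on simulated data. Medians and counts of gene lists carry no test.

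The 10 genes, the gene lists and the tests were chosen with earlier results of these data known. All 10 genes are named. From each of 3 partner lists the 2 genes of highest mean FPKM and the 2 of smallest limma p are named, from each marker list the gene of highest mean FPKM, and the 5 genes nearest to the mean pattern of the 10. Genes outside this rule (Prkar1a, Phb1, Car4, Crisp1, Adam7, Spink8, Rnase10 and Defb21) were named after their values were seen. Older symbols were matched through a gene name table. Alternatives were another pseudocount, no filter, a filter of 5 FPKM, rescaling to 1 sum, quantile normalization, centring on Sertoli or round spermatid markers, limma without the trend and leaving out each library. Positions are from GENCODE M21 and promoter windows from RefSeq. Motifs were searched in windows of 7 of the 10 genes, and not for Odf1, Cabyr or Fsip1.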

Additional observations from a re-analysis of the deposited data

How the results depend on the processing

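Of 120 log2 fold changes recomputed for the 10 genes under 12 alternatives, 105 kept their direction and their side of the threshold, 10 passed it (all with centring on Sertoli markers) and 5 turned negative (all with centring on round spermatid markers). With Sertoli centring the median over the 10 genes was 2.02. All 10 of them and 35 of the 41 partner genes passed limma's adjusted threshold. So did 47.1% of all tested genes in the same direction. With round spermatid centring the median was 0.013 and 0 of the 10 were higher in both Cus-1 libraries, against 0.474% of all tested genes. There Odf2 was at -0.24, Akap4 at -0.045, Ropn1l at -0.20, Fsip1 at -0.29 and Fsip2 at -0.42. Both centrings subtract a marker list that itself differs between the groups. Changing the filter or dropping limma's trend left the fold changes themselves unchanged. Leaving out 1 library gave medians of 0.64 to 1.87. With all libraries the groups did not overlap for any of the 10 genes, so these fits could not change a direction. In those fits the lone library of a group is assumed to vary like the others. Without Cus-1 1, 7 of all tested genes passed (2 higher, 5 lower), against 0 with all libraries. Without the filter on low values 5 of the 10 genes had an unadjusted limma p under 0.05 (9.39% of all genes in that fit), against 8 with it (18.0%), and their adjusted p ran from 0.320 to 0.423. No paired analysis was possible because the labels give no pairing and the replicate numbers follow submission order. With 2 libraries a group and a wide spread between the Cus-1 libraries, a p above the threshold does not show that levels were alike, and the FPKM table gives no fragment counts, so counting error could only be gauged roughly.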
